A study of Mus musculus with 2 samples.

Results

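In mouse erythroblasts, 515 promoters carried a very wide open interval, of 1300 bp or more in both replicates. They were 5.65% of the 9111 promoter sites found in both replicates and part of the 17766 open intervals of replicate 1 on chromosomes 1 to 19 and X. An interval was a distinct stretch of a replicate's strictest peak list, and its summits were the points of locally highest signal that the list gives for it, 1 line each. A member had to reach the width in replicate 1, overlap an interval of the same minimum width in replicate 2, and have its strongest summit within 1 kb of a start site of a protein-coding gene in GENCODE M21. The members were thus chosen on measured widths, so that width, and the number of summits that comes with it, are given as a description and were not tested. The data held 1 group, primary erythroblasts of adult male C57BL/6J mice aged 5 to 6 weeks, and 2 ATAC-seq libraries of 50000 cells each. Both libraries carry the same donor identifier in their labels, so the spread between them may be technical. With 1 group there was no condition to compare, and the other 8596 promoter sites found in both replicates served as the reference. Promoters of all 10 erythroid marker genes had a site in both replicates, against 10 of 77 marker genes of other blood cells. Among all 21728 protein-coding genes, 8965 had such a site.

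ATAC-seq uses a transposase that cuts preferentially where DNA is not wrapped in nucleosomes, so that active promoters appear as peaks just upstream of their start sites. Mammalian promoters are often rich in CpG dinucleotides, and many of them drive transcripts in both directions from a shared open stretch. Erythroblasts are the nucleated precursors of red cells, which fill with haemoglobin while their nucleus condenses.

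The site with the most summits in both replicates lay at Pfkfb2, which encodes an enzyme that makes and breaks down an activator of glycolysis. Its interval, chr1:130715514-130717897 in mm10 coordinates (GRCm38), was 2384 bp wide in replicate 1 and 2388 bp in replicate 2, with 9 summits in each. Windows of 75 bp on each side of 4 of the summits are shown as the example of what such an interval is made of, from RefSeq's GRCm38.p6 sequence, 5′ to 3′ on the strand of Pfkfb2, with distances counted from its start site. Capitals mark 3 motifs on either strand: NGATAA, which GATA factors bind, GGGCGG, the GC box of SP and KLF factors, and CCAAT, the box of NFY. Among the strongest-summit windows of all 9111 promoter sites, NGATAA was present in 9.92%, GGGCGG in 56.5% and CCAAT in 32.4%. The windows shown here are of weaker summits, not the strongest, as are most in the second set. At the weaker summits of the members, NGATAA was present in 11.0% of windows, GGGCGG in 26.6% and CCAAT in 15.8%. A match is a description of the letters only.
Pfkfb2 summit at 188 bp, chr1:130715551-130715701, minus strand: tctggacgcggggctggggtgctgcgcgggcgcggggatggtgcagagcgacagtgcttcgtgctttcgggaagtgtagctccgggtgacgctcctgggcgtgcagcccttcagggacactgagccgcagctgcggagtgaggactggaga
Pfkfb2 summit at -281 bp, chr1:130716020-130716170, minus strand: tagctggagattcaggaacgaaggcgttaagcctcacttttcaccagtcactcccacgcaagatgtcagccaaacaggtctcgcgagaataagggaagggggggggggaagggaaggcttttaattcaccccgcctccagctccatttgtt
Pfkfb2 summit at -645 bp, chr1:130716384-130716534, minus strand: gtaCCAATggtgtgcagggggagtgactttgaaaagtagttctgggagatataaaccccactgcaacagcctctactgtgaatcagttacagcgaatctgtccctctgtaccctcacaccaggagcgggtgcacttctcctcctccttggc
Pfkfb2 summit at -1943 bp, chr1:130717682-130717832, minus strand: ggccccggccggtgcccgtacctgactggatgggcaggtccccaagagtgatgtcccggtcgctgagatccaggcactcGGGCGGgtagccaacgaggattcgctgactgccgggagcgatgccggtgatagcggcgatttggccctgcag

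From the downstream edge to the upstream edge the Pfkfb2 windows differed in composition. The window at 188 bp was 68.2% GC with 14 CpG, and the window at -1943 bp was 67.5% GC with 14 CpG and 1 GC box. Between them, the window at -645 bp was 52.3% GC with 2 CpG and 1 CCAAT. The upstream edge reached past the start of Yod1, a gene for a deubiquitinating enzyme on the opposite strand, which lay over 1 kb from the strongest summit. The interval therefore held the starts of both genes, and its summit at -1943 bp fell in a coding exon in both replicates. In replicate 1 the enrichment, the authors' fold of a summit over background, was 6.45 at the strongest summit at -47 bp, 5.14 at -1673 bp, 4.40 at -281 bp and 4.09 at 188 bp. In replicate 2 it was 6.94 at -55 bp, 4.29 at -1669 bp, 4.79 at -289 bp and 4.33 at 201 bp. All 9 positions thus recurred within 60 bp, and the weakest summit was the one near -1000 bp in both replicates, with 2.37 and 2.46.

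The second set shows summits of the erythroid genes among the members: the alpha-globin genes Hba-a1 and Hba-a2, and Ppox, which encodes protoporphyrinogen oxidase of haem synthesis. The strongest summit of Hba-a2 is shown, and the weaker summits were chosen for printing after their values were seen. Not shown are the windows at 654 bp of Hba-a1, 509 bp of Hba-a2 and 717 bp of Ppox, which held none of the marked motifs. Windows that overlap an untranslated region were left out.
Hba-a2 summit at -134 bp, chr11:32296280-32296430, plus strand: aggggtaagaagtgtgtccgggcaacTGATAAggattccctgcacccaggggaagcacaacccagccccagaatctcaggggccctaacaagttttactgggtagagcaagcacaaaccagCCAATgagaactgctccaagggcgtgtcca
Hba-a2 summit at 988 bp, chr11:32297402-32297552, plus strand: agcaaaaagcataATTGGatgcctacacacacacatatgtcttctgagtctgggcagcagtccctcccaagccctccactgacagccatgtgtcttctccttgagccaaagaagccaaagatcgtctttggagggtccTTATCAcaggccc
Hba-a1 summit at 1200 bp, chr11:32284636-32284786, plus strand: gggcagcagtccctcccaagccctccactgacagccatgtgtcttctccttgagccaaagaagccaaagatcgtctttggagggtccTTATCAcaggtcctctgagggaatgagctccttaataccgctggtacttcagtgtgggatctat
Ppox summit at -638 bp, chr1:171281749-171281899, minus strand: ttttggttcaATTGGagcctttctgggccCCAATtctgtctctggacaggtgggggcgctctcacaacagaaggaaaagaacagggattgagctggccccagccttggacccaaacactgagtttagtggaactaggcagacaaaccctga
Ppox summit at -378 bp, chr1:171281489-171281639, minus strand: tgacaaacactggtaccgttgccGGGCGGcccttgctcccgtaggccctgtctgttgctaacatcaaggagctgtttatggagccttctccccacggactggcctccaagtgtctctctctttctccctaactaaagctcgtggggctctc

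The strongest Hba-a2 window held 1 NGATAA and 1 CCAAT match at 55.0% GC, with 2 CpG and no GC box. The windows downstream of both alpha-globin genes shared a stretch that holds the same NGATAA match on the minus strand. Neither of the Ppox windows shown held NGATAA: the one at -638 bp had 2 CCAAT matches and the one at -378 bp had 1 GC box.

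The third set shows DNA between the start sites of divergent gene pairs, genes that run away from each other from 1 open site. It was chosen after the values were seen, because such pairs were found at a larger share of the members than of the other sites. The stretches are printed on the plus strand and run from the base after the minus-strand start to the base before the plus-strand start. Their lengths differ from those of the summit windows, so the shares above do not apply to them.
Between Nup88 and Rpain, chr11:70969974-70970212, plus strand: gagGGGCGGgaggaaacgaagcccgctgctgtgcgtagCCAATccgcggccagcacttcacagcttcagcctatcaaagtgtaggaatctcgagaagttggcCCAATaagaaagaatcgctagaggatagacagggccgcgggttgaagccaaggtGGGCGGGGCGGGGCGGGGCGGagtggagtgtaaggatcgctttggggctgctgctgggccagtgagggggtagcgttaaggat
Between Ncapd2 and Mrpl51, chr6:125191702-125191800, plus strand: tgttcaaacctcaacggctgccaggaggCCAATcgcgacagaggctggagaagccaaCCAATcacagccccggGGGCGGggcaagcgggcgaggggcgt
Between Zranb3 and R3hdm1, chr1:128103048-128103300, plus strand: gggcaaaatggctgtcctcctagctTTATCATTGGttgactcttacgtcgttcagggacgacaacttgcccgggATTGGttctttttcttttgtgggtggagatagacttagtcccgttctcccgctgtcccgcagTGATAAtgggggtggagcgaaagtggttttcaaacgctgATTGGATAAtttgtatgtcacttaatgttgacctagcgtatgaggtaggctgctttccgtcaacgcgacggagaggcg
Between Ino80e and Hirip3, chr7:126861870-126861971, plus strand: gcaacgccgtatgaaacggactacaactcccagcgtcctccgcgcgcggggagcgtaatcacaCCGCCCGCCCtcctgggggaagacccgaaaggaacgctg

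The 239 bases between Nup88, a nuclear pore protein, and Rpain, which helps to import a DNA replication factor, held 5 GC box and 2 CCAAT matches. The 99 bases between Ncapd2, a condensin subunit, and Mrpl51, a protein of the mitochondrial ribosome, held 1 GC box and 2 CCAAT matches. The 253 bases between Zranb3, a DNA translocase of replication repair, and R3hdm1 held 3 NGATAA and 3 CCAAT matches and no GC box, at 49.8% GC. The 102 bases between Ino80e, a subunit of a chromatin remodeller, and Hirip3 held 2 GC box matches and neither of the other motifs.

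Among the members, width had a similar range and median in both replicates. The rule sets this in part, because it asked for 1300 bp in both. The members ranged from 1300 to 2384 bp in replicate 1, with a median of 1463 bp, and from 1300 to 2388 bp in replicate 2, with a median of 1460 bp. Each member had a replicate 2 interval of its own, and 51 of the 515 had a smaller width under 1320 bp. Of the 866 replicate 1 promoter sites of 1300 bp or more that were found in both replicates, 351 were narrower than that in replicate 2, and another 283 promoter sites were that wide in replicate 2 alone. Just inside the limit were Nfya with 1300 bp in both replicates, Srp14 with 1300 and 1433 bp, and Tprgl with 1301 and 1340 bp. Just outside, each with 1299 bp in replicate 1, were 1110059G10Rik with 1030 bp in replicate 2, Abhd18 with 1242 bp and Arl6ip1 with 1266 bp. The values on the 2 sides of the limit were nearly continuous.

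**Figure D1:**
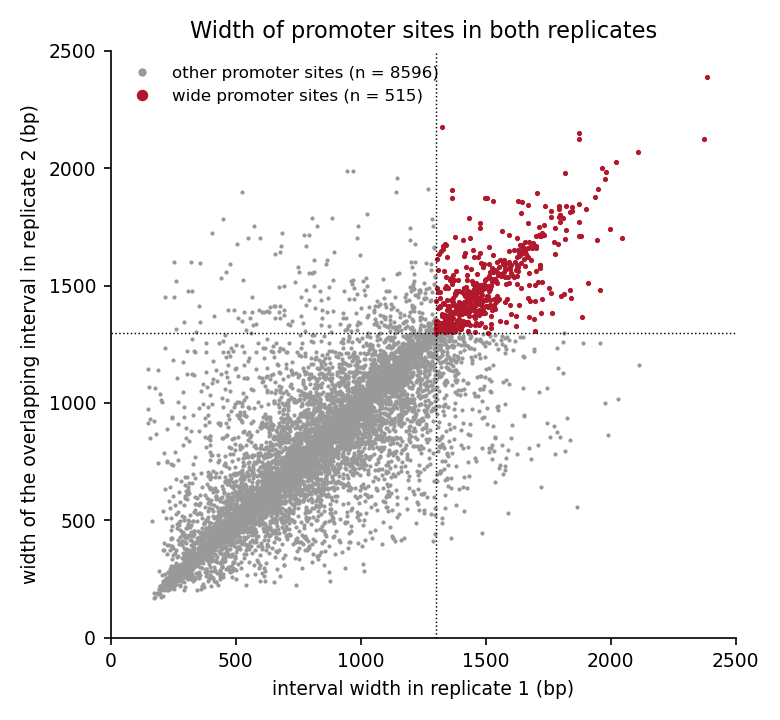
Width in bp of each promoter site found in both replicates, replicate 1 on the x axis and the overlapping interval of replicate 2 on the y axis, with dotted lines at 1300 bp. The 515 wide sites (red) fill the upper right corner, and the 8596 other sites (grey) run up to both lines without a gap.

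Behind Pfkfb2, the widest sites by the mean of both replicates lay at Stim1, the calcium sensor of the endoplasmic reticulum, with 2373 and 2126 bp, and at Asb3, an adaptor of a ubiquitin ligase, with 2110 and 2068 bp. Hist1h2be followed with 2022 and 2028 bp. That interval also held the start of Hist1h1e, a linker histone gene, over 1 kb from its strongest summit, so that 3 of the 515 members in all held the start of a further gene at such a distance. The site of Cxcr4, the receptor of a chemokine that holds blood progenitors in the marrow, was 1872 bp wide in replicate 1 and 2123 bp in replicate 2. Trim23, shared with Trappc13, had 1966 and 1999 bp, and Nup88, shared with Rpain, had 1977 and 1952 bp. Tmem120b had 1874 and 2150 bp, and Pde12, which encodes a mitochondrial exonuclease, had 1950 and 1913 bp. Among these sites the replicates differed most at Tmem120b, Cxcr4 and Stim1, by over 200 bp each.

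**Figure D2:**
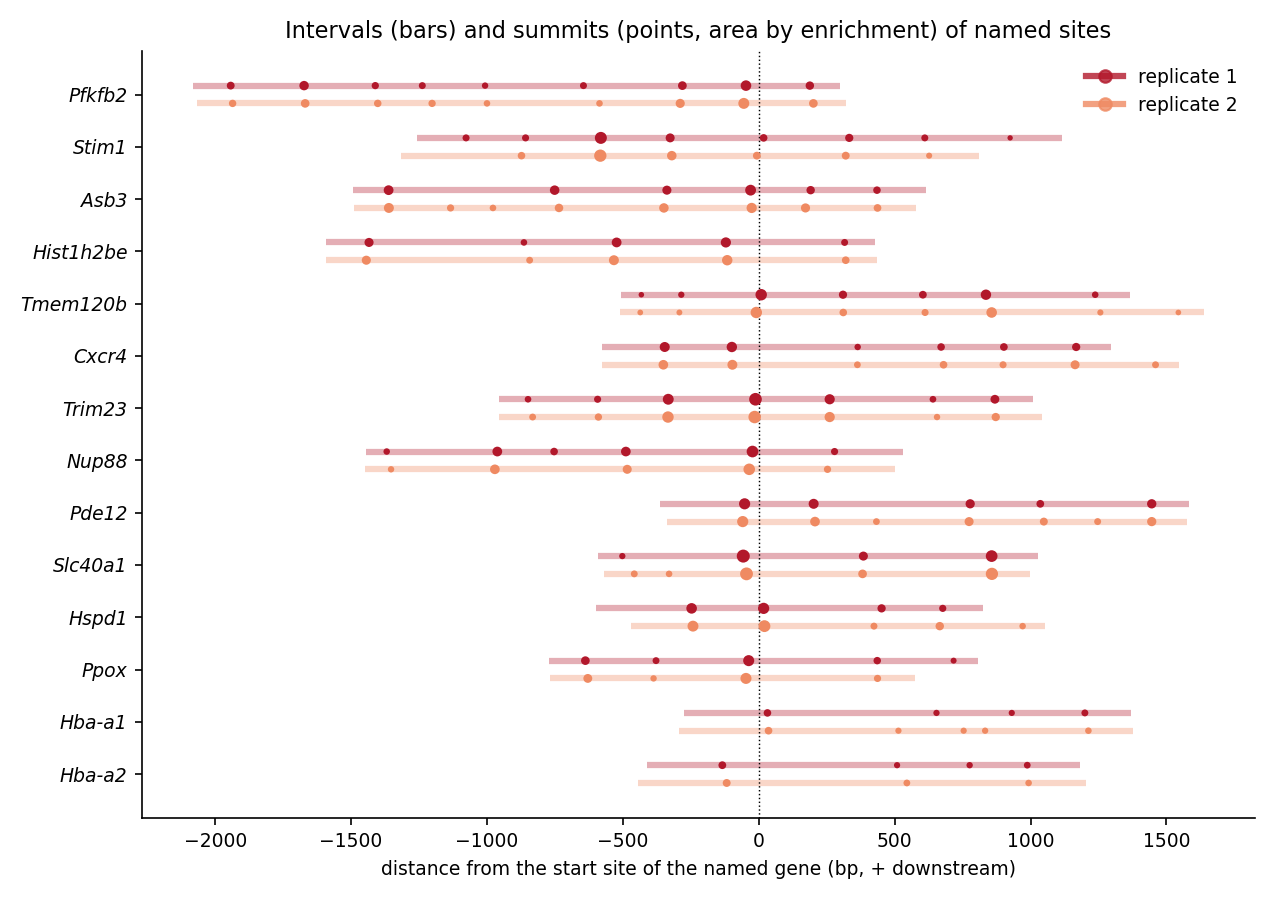
Intervals (bars) and summits (points, with area by enrichment) of 9 of the widest sites and of 5 further named sites, replicate 1 above replicate 2, by distance in bp from the start site of the named gene. The strongest points lie within 150 bp of the start site in 13 of the 14 sites, with Stim1 at -581 bp apart from the rest.

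The members had a median of 4 summits in each replicate, with a mean of 4.41. In replicate 1, 193 members had 4 summits, 149 had 5, 87 had 3 and 65 had 6. In replicate 2, 184 had 4, 165 had 5, 93 had 3 and 52 had 6. Only Pfkfb2 reached 9, while 1 member in each replicate had a single summit. The number was the same in both replicates in 243 members (47.2%), differed by 1 in 216 (41.9%) and by more in 56 (10.9%). Kdm4c, a histone demethylase gene, had 6 summits in replicate 1 and 8 in replicate 2, whereas Prdm10 had 7 in both. The other promoter sites had a median of 2, and 4 or more summits were listed in 13.5% of them against 81.4% of the members. Per kb of interval the medians were 2.92 in the members and 2.84 in the others, so that the number of summits per length was close.

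The distance between neighbouring summits had a median of 296 bp in replicate 1 and 297 bp in replicate 2, over 1757 and 1755 gaps. Among the other sites it was 276 bp. Gaps of 200 to 400 bp made up 65.7% and 65.5% of those in the members and 75.9% of those in the others. The members thus had a somewhat longer tail of wide gaps, up to 919 bp.

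**Figure D3:**
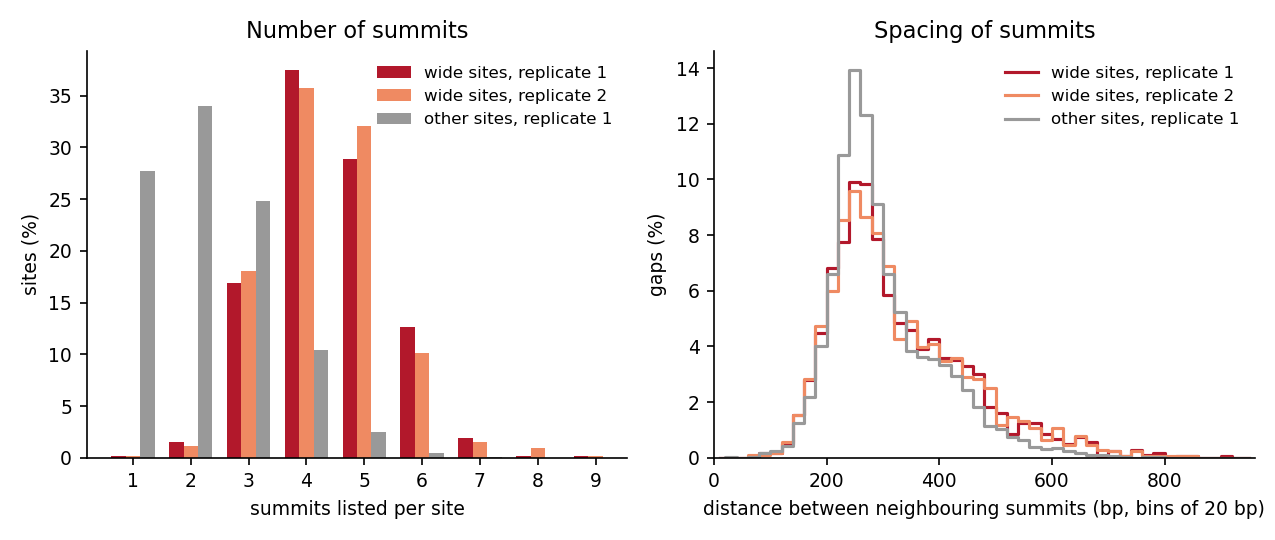
Left, share of sites in percent by number of summits, and right, share of gaps in percent by distance between neighbouring summits in bins of 20 bp, for the wide sites in each replicate and the other sites in replicate 1. Wide sites peak at 4 summits and other sites at 2, while all 3 gap curves peak between 200 and 300 bp.

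Summit positions recurred between the libraries. Of the 2272 replicate 1 summits, 86.3% had a replicate 2 summit within 50 bp, and the share in the opposite direction was also 86.3%, of 2270. The strongest summit recurred in 97.9% of members, the second in 94.9%, the third in 86.2%, and the fourth and later ones in 72.2% of 737. In the other sites these shares were 98.9%, 81.0%, 68.4% and 49.0%. They are not a like-for-like comparison, because only the members had to overlap a wide interval in replicate 2. The shares differed between orders of summit by more than their counting error: the interval of the fourth and later summits ran from 68.8 to 75.3% (Wilson, 95%), and that of the second from 92.7 to 96.5%. These intervals, like all others here, cover counting error only. The same summit was the strongest in both replicates, within 50 bp, in 472 members (91.7%). In 32 members (6.21%) the strongest summits lay over 150 bp apart, as at the shared site of Zwilch and Rpl4, where they were 478 bp apart, and at Cdk4, where they were 183 bp apart.

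The members were not the most enriched promoters. Their strongest summits had a median enrichment of 8.81 in replicate 1 and 8.90 in replicate 2 (mean 8.85 ± 0.0676, SD, n = 2), at the 61.4th and 62.9th percentile of all intervals in their lists. The other promoter sites had medians of 9.22 and 9.42. Sites from 900 to under 1300 bp had 10.3, and those under 600 bp had 6.69. The −log10 p that the list gives for the same summits had a median of 76.7 in members and 61.1 in others in replicate 1. It was 76.9 in sites from 900 to under 1300 bp. Which group had the higher enrichment depended on how wide sites were chosen. With replicate 1 alone the medians were 8.94 for wide and 8.99 for other sites, with replicate 2 alone 9.15 and 8.97, and in the list made from both replicates 9.65 and 8.47. The second summit of a member reached a median of 0.712 of the strongest in replicate 1 and 0.720 in replicate 2, against 0.498 in the others. This ratio depends on the number of summits, which the choice by width sets in part. Among sites with 4 summits in replicate 1 it was 0.683 in 193 members (quartiles 0.475 and 0.843) and 0.591 in 899 others (0.429 and 0.811), and among those with 5 it was 0.756 and 0.653, so the gap was smaller at equal number and the quartile ranges overlapped. Median enrichment in the members went from 8.81 at the strongest summit to 5.70 at the second, 3.83 at the third and 2.97 at the fourth in replicate 1, and from 8.90 to 5.75, 3.73 and 2.89 in replicate 2.

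The highest enrichment among the members was at Pnpt1, a mitochondrial RNA-processing enzyme gene, with 17.5 in replicate 1 and 18.6 in replicate 2. Utp3 followed with 15.2 and 14.2, and Psmd11, a subunit gene of the proteasome cap, with 14.4 and 14.2. Aspm, a spindle pole gene of dividing cells, had 14.2 and 14.3. Rpp30, an RNase P subunit gene, had 14.6 and 13.6. The next 5 sites, at Zc3h11a, Tmem41b, Pigm, Cyld and Tbpl1, ranged from 11.9 to 13.4 in replicate 1 and from 13.1 to 14.2 in replicate 2. None of these 10 was among the 10 widest. The lowest values of all members belonged to Hba-a1, with 3.28 and 3.37.

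The strongest summit of a member lay at a median of 42 bp upstream of the start site (-42 bp), against -32 bp in the other sites, and downstream of it in 18.4% of members and 25.3% of others. The remaining summits lay on both sides: 54.8% were downstream in the members and 57.7% in the others. By annotation, 31.3% of all member summits lay outside protein-coding genes, 35.7% in introns, 25.6% in untranslated or non-coding exons and 7.48% in coding exons. Of the strongest summits, 54.2% lay outside protein-coding genes. In the 376 members with start sites on 1 strand, the 100 bp just upstream of the start held 63.3 summits per 100 sites. The second 100 bp downstream held 10.4 and the third held 33.2. The other sites showed the same order, with 57.2, 7.41 and 25.3. Further out the members stayed higher, with 28.7 against 12.6 at 400 to 500 bp downstream and 21.5 against 8.82 at the same distance upstream. The choice by width sets this difference in part, because many of the other intervals do not reach that far, and it was not tested.

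**Figure D4:**
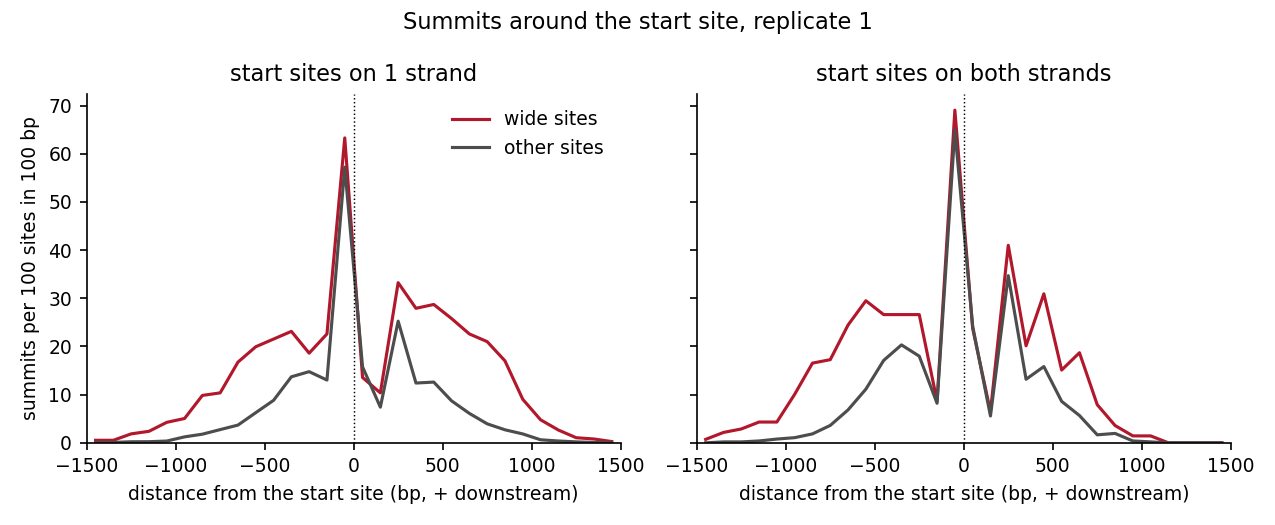
Summits per 100 sites in bins of 100 bp, by distance in bp from the start site, in replicate 1, for sites with start sites on 1 strand (left) and on both strands (right). Wide and other sites share the peak just upstream of the start and the dip at 100 to 200 bp downstream. The wide sites stay higher further out on both sides, which the choice by width sets in part.

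The extra width lay more on the transcribed side where protein-coding genes started on 1 strand only within 1 kb of the strongest summit. There the intervals reached a median of 667 bp upstream and 834 bp downstream of the start, and 62.2% of them (57.2 to 67.0%) reached further downstream than upstream. The other sites with 1 strand were nearly even, at 381 and 395 bp, with 50.7% reaching further downstream. A non-coding gene also started within 1 kb in 18.4% of the members with 1 strand and 11.4% of such other sites. Hist1h1c, a linker histone gene, was an extreme case, with 144 bp upstream and 1425 bp downstream, and its strongest summit lay at 807 bp. Pde12 reached 365 bp upstream and 1584 bp downstream. Where genes started on both strands, the members reached 825 bp upstream and 641 bp downstream, against 500 and 461 bp in the other sites. At such sites the DNA upstream of the named gene belongs in part to its partner.

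Start sites on both strands within 1 kb of the strongest summit were present in 139 of the 515 members, 27.0% (23.3 to 31.0%), and in 11.9% (11.2 to 12.6%) of the other sites. The window of this count did not depend on the width of the interval. The share was larger in the wider classes: 5.90% under 600 bp, 9.83% from 600 to under 900 bp, 16.3% from 900 to under 1300 bp, 22.2% in sites wide in replicate 1 alone and 23.7% in those wide in replicate 2 alone. Among the sites between the 40th and 60th percentile of enrichment in replicate 1, the shares were 29.0% and 14.5%. The share was higher in the wide sites under each of the 9 settings tried. Of the 139 members, 125 held divergent pairs, with a median of 163 bp between the starts, against 130.5 bp in the other sites. Both starts lay inside the interval in 124 of the 125, and the strongest summit lay between them in 91 (72.8%, against 71.2% in the others). A non-coding gene started within the same distance in 14.0% of members and 10.2% of others.

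The pairs printed above illustrate this. The Nup88 and Rpain site had 6 summits in replicate 1 and 5 in replicate 2, with enrichments of 7.86 and 7.68. The Ncapd2 and Mrpl51 site was 1714 and 1716 bp wide, with 5 summits in each replicate and enrichments of 8.84 and 9.25. The Zranb3 and R3hdm1 site was 1658 and 1685 bp wide with 5 and 6 summits, and its strongest summits were 358 bp apart in the replicates. The Ino80e and Hirip3 site was 1699 and 1503 bp wide with 6 and 4 summits.

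Within 150 bp on each side of the strongest summit, GC content had the same median of 63.1% in members and others. The CpG ratio, observed over expected CpG, was 0.855 in the members and 0.805 in the others, and it was higher in the wide sites under each of the 9 settings. The unbroken CpG-rich stretch over the summit, of windows with over 50% GC and a ratio over 0.6, had a median of 860 bp against 700 bp. It reached 1 kb in 33.8% of members and 23.3% of others, and it was missing in 6.21% and 14.1%. Sites wide in replicate 1 alone were like the members, with a CpG ratio of 0.857, a median stretch of 840 bp and 35.3% reaching 1 kb. Sites from 900 to under 1300 bp had 0.836, 740 bp and 22.9%. The stretch was missing in 6.83% of that class and in 29.1% of sites under 600 bp. Among the widest sites the stretch was 1980 bp long at Pde12, while Pfkfb2 had 480 bp and Trim23 had 360 bp. Only the stretch over the strongest summit was measured, so a further CpG-rich part of the same interval was not counted. At Pfkfb2 the window at -1943 bp had a CpG ratio of 0.824. At 400 to 500 bp from a start on 1 strand, the mean CpG number per 100 bp was 6.68 in members and 5.77 in others downstream, and 3.90 and 3.00 upstream. At the weaker summits the composition was alike, with a CpG ratio of 0.656 in members and 0.655 in others. Over all 9111 promoter sites, width and CpG ratio had a Spearman rho of 0.213 and width and enrichment one of 0.307. These are descriptions over sites that share a library and a base composition.

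**Figure D5:**
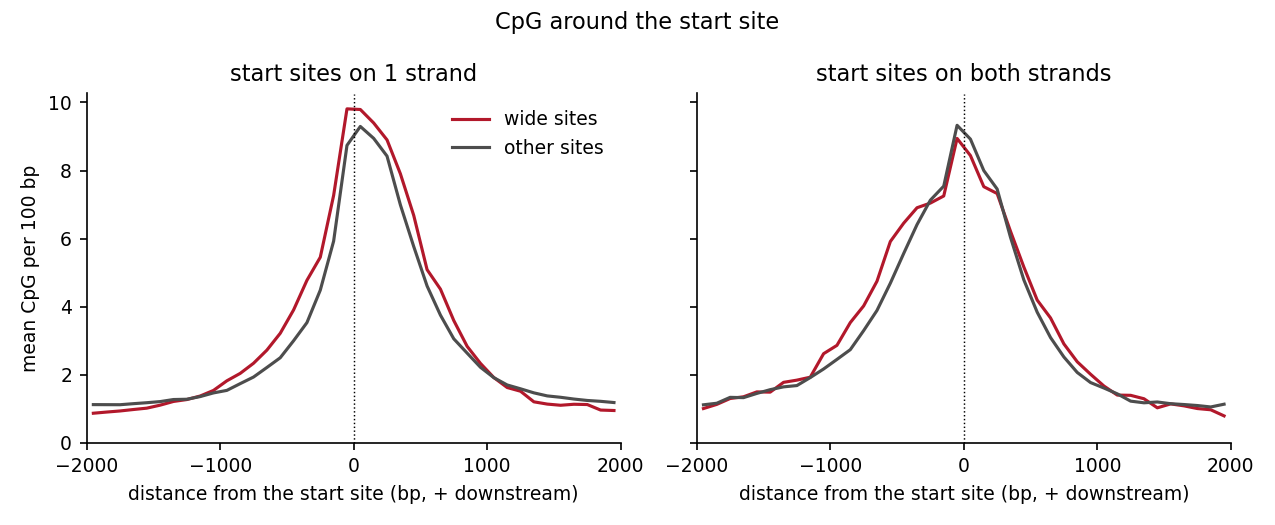
Mean number of CpG per 100 bp, by distance in bp from the start site, for sites with start sites on 1 strand (left) and on both strands (right). On 1 strand the wide sites lie above the others on both flanks, with 6.68 against 5.77 at 400 to 500 bp downstream, and the curves meet near 1 kb.

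Among 16 motifs searched on both strands within 75 bp of the strongest summit, most were about as frequent in members as in others. NGATAA was present in 9.32% (7.10 to 12.1%) of members and 9.96% of others, and CCNCNCCC, the motif of KLF1 and its relatives, in 55.3% and 54.6%. GGGCGG was present in 59.6% and 56.3%, CCGGAAG of ETS factors in 15.7% and 15.9%, and TATAAA in 1.36% and 1.63%. CCAAT was present in 36.9% (32.8 to 41.1%) of members and 32.2% (31.2 to 33.1%) of others, whose intervals overlap. The ZFP143 motif was present in 2.33% (1.34 to 4.03%) and 0.838% (0.666 to 1.05%), 12 members in all, and its share was 0.980% among the wide sites of the list made from both replicates. CAGATG, an E-box of TAL1 and its partners, was present in 2.72% (1.63 to 4.51%) of members and 5.64% (5.17 to 6.15%) of others, and in 4.52% of those of 1500 bp or more. At the weaker summits of the members, GGGCGG was present in 26.6% of windows, CCAAT in 15.8% and NGATAA in 11.0%, beside 27.6%, 14.0% and 11.2% at the weaker summits of the others. The NFE2 motif, of an erythroid factor, was present at 9 of the 1757 weaker member summits, 0.512% (0.270 to 0.971%), and at 14 of the 10977 others, 0.128% (0.0760 to 0.214%). At the strongest summits it was present in 0 members and 0.163% of others. The CTCF core motif was present in 8.16% (6.09 to 10.8%) of members and 10.8% (10.1 to 11.5%) of others, and within 150 bp of the summit in 12.6% (upper bound 15.8%) and 16.9% (lower bound 16.1%). Such small shares among 16 motifs were not tested.

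By gene, 663 of the 8965 protein-coding genes with a promoter site in both replicates had a wide one, 7.40%, and these were 3.05% of all 21728 protein-coding genes. Of the genes on 5 erythroid lists, 3 of 101 did, 2.97% (1.02 to 8.37%), and their median width in replicate 1 was 773 bp against 913 bp over all genes. None of 25 erythroid transcription regulators was among them. Gata1, the master regulator of red cell genes, had 446 and 443 bp with 1 summit in each replicate. Klf1, which switches on adult globin, had 565 and 593 bp, and Tal1 had 513 and 478 bp. Zfpm1, the partner of GATA1, was the widest regulator with 1161 and 1180 bp. In the list made from both replicates, where 20.6% of genes had a wide site, 13 of 108 erythroid genes did (12.0%) and 0 of 26 regulators. The order of erythroid genes and all genes was thus the same there.

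Of 4 globin genes with a promoter site, the 2 alpha-globin genes were wide. Hba-a1, at chr11:32283235-32284880, had 1646 and 1674 bp with 4 and 5 summits and enrichments of 3.28 and 3.37. Hba-a2, at chr11:32296079-32297671, had 1593 and 1648 bp with 4 and 3 summits and enrichments of 3.49 and 3.61. Both intervals covered the whole short gene, from 276 bp upstream to 1369 bp downstream of the start at Hba-a1 and from 410 to 1182 bp at Hba-a2. Neither site had a CpG-rich stretch, and both had a CpG ratio of 0.188. The Hba-a1 and Hba-a2 intervals are 98.9% identical over 1593 aligned bases, so reads cannot be placed with certainty in 1 of them, and the values of each are uncertain. The beta-globin genes were narrower: Hbb-bs had 1072 and 899 bp, and Hbb-bt had 884 and 872 bp.

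Of 24 genes of haem and iron, only Ppox was wide, with 1581 and 1344 bp, 5 and 4 summits and enrichments of 7.05 and 7.03. Fth1, the ferritin heavy chain gene, had 1347 bp in replicate 1 and 676 bp in replicate 2. Tfrc, the transferrin receptor gene, had 557 and 573 bp. None of 26 membrane and cytoskeleton genes was wide, although Stom had 1378 and 1262 bp and Xk had 1175 and 1344 bp, each past the limit in 1 replicate. None of 22 receptor, survival and maturation genes was wide either. Gabarapl2, an autophagy gene, came nearest with 1958 and 1256 bp. Among the markers of other cells, Slc40a1, the iron exporter on the macrophage list, was wide with 1621 and 1568 bp and enrichments of 9.76 and 9.48, and it was the only one of the 11 genes of that list with a promoter site.

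Of 20 heat shock and chaperone genes, 4 had wide sites, 20% (8.07 to 41.6%), against 7.40% of all genes. Hspd1 and Hspe1, the mitochondrial chaperonin and its partner, shared 1 site of 1427 and 1524 bp around their divergent starts, so that the 4 genes stood for 3 sites. Hspa5 and Hsp90b1, both chaperones of the endoplasmic reticulum, had 1435 and 1386 bp, and 1417 and 1382 bp, with enrichments over 10 in both replicates. Of 33 histone genes, 5 were wide: Hist1h2be, Hist1h1c, Hist2h4, Hist2h3b with Hist2h2bb, and H3f3b, a replacement histone gene that had 1463 and 1472 bp. Histone genes include near-identical copies, so their values are uncertain. Of 30 ubiquitin pathway genes, 3 were wide: Cul1, a ligase scaffold, with 1944 and 1693 bp, Usp32 with 1719 and 1589 bp, and Ube2k with 1483 and 1470 bp. Of 27 cell cycle genes, Plk1, a mitotic kinase, had 1395 and 1333 bp and Cdk4 had 1403 and 1315 bp. Of 30 ribosomal protein genes only Rpl4 was wide, in the site it shared with Zwilch, of 1449 and 1395 bp. None of 23 immediate early genes was wide. The intervals of all lists with a promoter site included the 7.40% of all genes, except those of the globin, chaperone and macrophage lists, which rest on 2, 4 and 1 wide genes. These intervals count genes as independent, although the 4 chaperone genes stood for 3 sites and the 2 globin intervals were 98.9% identical. Whether the exceptions hold when sites are counted was not tested.

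Around the members, other open sites over 1 kb from any start site numbered a mean of 1.12 within 50 kb, against 1.11 around the other promoter sites, and 43.5% and 48.2% had none. By chromosome, the share of promoter sites that were wide was highest on chromosome 11, with 61 of 833 (7.32%), and lowest on X, with 5 of 246 (2.03%).

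All 515 members had the same interval and the same number of summits in the longer, less strict list of replicate 1, and the replicate 2 intervals likewise kept their summit numbers. In the strictest list made from both replicates all 515 were found at 1300 bp or more, with a median of 1558 bp and 5 summits, and 158 members had more summits there than in replicate 1. That list held 1966 intervals of 1300 bp or more, against 1014 and 912 in the lists of the single replicates. Width in these lists is thus a value of the list as well as of the site.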

How the data were processed

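ATAC-seq peak lists of 2 replicates were used. The authors' deposited lists give, per summit, the fold enrichment over background, a ratio, and the −log10 p. Coordinates are mm10, per the labels. Not given in the sources used here are the aligner, the peak caller and how neighbouring summits were joined. The files hold no read counts, so depth is unknown. Python 3.11.15 with pandas 2.3.3, scipy 1.17.1 and pysam 0.24.0 was used, and the functions were checked on simulated data. Overlap was at least 1 bp. Start sites came from all transcripts of 21728 protein-coding genes of GENCODE M21, and sequence from RefSeq GRCm38.p6, the same build. Shares have 95% Wilson intervals. The members, gene lists and motifs were chosen with earlier results of these data known. Named were the 10 sites with most summits, the 10 widest, the 10 most enriched, all erythroid list members, up to 5 members of every other list, and sites next to the width limit; further names were added after their values were seen. Of the sites this rule names, 2 are not reported here. Alternatives changed the width, the distance to the start site, the replicates, the list, the windows and, added after seeing the data, the kind of start site. Chromosome Y was left out by the rule.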

Additional observations from a re-analysis of the deposited data

How the results depend on the processing

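No paired analysis was possible because the series has 1 group. Across alternatives, 153 values were computed. Of these, 99 moved by more than the spread of the replicates or, for counts, past 1.5 times the count. The number of wide sites was 889 at 1200 bp, 155 at 1500 bp and 1633 in the list from both replicates, and 758 to 868 with 1 replicate left out. Median summits were 5 at 1500 bp. Median enrichment was 9.11 at 1200 bp, 8.40 at 1500 bp, 8.89 within 500 bp of a start, 9.65 in the list from both and 8.94 to 9.15 with 1 replicate left out. It was below that of other sites with the settings used here, but above it in 2 of 9 settings, where the order turned: 9.15 against 8.97 without replicate 1, and 9.65 against 8.47 in the list from both. Summits downstream were 45.4% at 1500 bp, 50.6% in the list from both, 47.9% with protein-coding transcripts only and 48.2 to 49.0% with 1 replicate left out. Start sites on both strands were 28.2%, 29.0%, 28.0% (within 500 bp), 22.9% (list from both), 26.4% (protein-coding transcripts) and 25 to 26.1% with 1 replicate left out. The CpG ratio was 0.843, 0.822 and 0.866 (within 500 bp). NGATAA was present in 8.89%, 8.39%, 8.52% (within 500 bp), 8.45% (list from both), 8.81% (protein-coding transcripts) and 16.5% (wider window), and 8.31 to 8.76% with 1 replicate left out. Wide erythroid list genes numbered 7 at 1200 bp (6.93%, against 12.9% of all genes) and 13 in the list from both (12.0% against 20.6%). With replicate 1 alone they numbered 6 (5.94% against 12.0%), and with replicate 2 alone 5 (4.85% against 10.4%). Distal sites averaged 1.10, 1.31, 1.10 (within 500 bp), 1.07 (list from both), 1.11 (protein-coding transcripts) and 1.04 to 1.11 with 1 replicate left out. Recurrence was 78.1% within 25 bp and 89.1% within 100 bp. Where 2 values open a list without a setting, they are at 1200 and 1500 bp. The cause of these shifts was not tested.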
